A study of Rattus norvegicus with 12 samples.

Results

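The miR-130 and miR-301 family comprises the microRNAs (miRNAs) cut from the miR-130a, miR-130b, miR-301a and miR-301b hairpins. They were picked by name from the deposited table, taking every arm listed, which gave 7 mature miRNAs among 641. These are both arms of miR-130a, miR-130b and miR-301a, and the 3p arm of miR-301b; their identifiers carry the prefix of the rat, as in rno-miR-130a-3p, rno-miR-130b-3p and rno-miR-301a-3p, which is dropped below. Small RNA was sequenced from aorta of female spontaneously hypertensive rats (SHR), an inbred rat line bred for raised arterial pressure. The control group of 6 libraries had received saline, and the other group of 6 libraries carries the treatment label EWH; by its title the series concerns peptides from egg white and their effect on blood pressure. The labels give no age, dose or duration, and no second strain or sex. The labels do not state whether each library is a separate animal, so a p-value here reflects the spread among libraries, which may be technical.

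A miRNA guides Argonaute proteins to messenger RNAs, mainly through its seed, the stretch from base 2 to base 8. Each hairpin yields a 5p and a 3p arm, of which one is usually loaded and the other mostly discarded. In this family the 3p arm is the usual guide. The family is best known from pulmonary hypertension, where it represses PPARG, a nuclear receptor that restrains growth of smooth muscle and endothelium, and miR-130a is known from angiogenesis as a repressor of the homeobox genes Meox2 and Hoxa5.

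RefSeq's miRNA table (build GRCr8) matched 6 of the 7 by name; miR-301a-3p was not matched. The 3p arms are shown first because they define the family, with the seed in capitals and each written 5′ to 3′.
miR-130a-3p: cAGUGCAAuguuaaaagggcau
miR-130b-3p: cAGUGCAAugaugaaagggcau
miR-301b-3p: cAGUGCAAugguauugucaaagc
They share the seed and are identical over the first 10 bases. MiR-130a-3p and miR-130b-3p match at 20 of 22 positions, and how the authors assigned reads that fit both is not given in the sources used here. No other entry among the 693 mature sequences of the table has these bases at positions 2 to 8; 60 of the listed miRNAs, miR-301a-3p among them, have no sequence there and were not searched. The 6 bases GUGCAA, which are bases 3 to 8 of the family, stand at bases 2 to 7 of miR-19a-3p and miR-19b-3p, from the growth-promoting miR-17-92 cluster, here with bases 2 to 8 in capitals.
miR-19a-3p: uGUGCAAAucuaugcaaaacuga
miR-19b-3p: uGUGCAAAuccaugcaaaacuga

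The 5p arms are shown because one of them turned out to be the second most abundant member. Their seeds differ from that of the 3p arms.
miR-130a-5p: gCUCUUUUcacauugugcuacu
miR-130b-5p: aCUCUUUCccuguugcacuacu
miR-301a-5p: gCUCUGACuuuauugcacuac
The hairpins lie at 3 places in GRCr8. MiR-301b and miR-130b are neighbours on the plus strand of chromosome 11, 269 bases apart and within the span of the gene 2610318N02Rikl. MiR-301a lies on the plus strand of chromosome 10 within the spans of Ska2 and Prr11, and miR-130a on the minus strand of chromosome 3 in no annotated gene, with Ypel4 as the nearest gene on one side. The table gives no exons. The miR-130b hairpin is given whole, with its 5p and then its 3p arm in capitals, because its arms were read in an order unlike that of miR-130a.
Mir130b: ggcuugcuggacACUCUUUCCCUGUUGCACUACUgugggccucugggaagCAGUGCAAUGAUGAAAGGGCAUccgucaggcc

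Levels are in reads-per-million of a library's total (rpm), the unit of the deposited values, where totals ran from 23887799 to 24772944 reads and 76.4% to 80.6% of them fell in listed miRNAs. One read was worth about 0.04 rpm, and a listed 0 allowed up to 3 reads, or 0.121 to 0.126 rpm, for counting error only. No molecular identifiers are mentioned in the labels, so intervals cover counting error alone. The smooth muscle markers miR-143-3p, miR-145-5p and miR-145-3p and the endothelial markers miR-126a-3p and miR-126a-5p, which fit the labelled tissue, were read in all 12 libraries. Some libraries stood apart in markers of cell types. Control 1 was highest in the sum of the endothelial markers, at 12305 rpm against at most 6913 rpm elsewhere. It was also highest in the sum of 3 markers of adipocytes and brown fat (miR-378a-3p, miR-193b-3p and miR-365-3p), at 1355 rpm against at most 513 rpm. That sum was mostly miR-378a-3p, whose control mean was 417 rpm, against 22.2 rpm for miR-365-3p and 0 rpm for miR-193b-3p. No such gap was seen in the 4 listed markers of skeletal and cardiac muscle (miR-1-3p, miR-133a-3p, miR-206-3p and miR-499-5p). Their sum was highest in EWH 3 and control 6, at 1436 and 1366 rpm, and EWH 1 followed at 1238 rpm. MiR-1-3p and miR-206-3p had a higher mean in EWH, and miR-133a-3p and miR-499-5p a lower one. The 5 epithelial markers (miR-200a-3p, miR-200b-3p, miR-200c-3p, miR-141-3p and miR-429) summed to 238 rpm in control 5 and 636 rpm in control 6, against at most 86.9 rpm in the other 10 libraries. The 4 markers of neurons and glia (miR-9a-5p, miR-124-3p, miR-338-3p and miR-219a-5p) summed to 564 rpm in EWH 3 and 700 rpm in EWH 4, against at most 291 rpm in the other 10 libraries. EWH 1, 5 and 6, at 145, 291 and 268 rpm, were also above the highest control, at 136 rpm, while EWH 2 was at 86.3 rpm. The mean sum was 91.9 ± 34.0 rpm among controls and 342 ± 241 rpm under EWH (SD, n = 6 each). In whole aorta, fewer cells of a type and less RNA per cell cannot be told apart.

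MiR-130a-3p was the one abundant member. It read 6.58, 9.98, 8.64, 9.11, 10.8 and 9.73 rpm in controls 1 to 6, and 8.84, 6.74, 8.46, 9.96, 9.34 and 10.7 rpm in EWH 1 to 6. Control 1, which is also highest in the summed endothelial and adipocyte markers, and EWH 2 were the lowest libraries of their groups. The groups overlapped almost completely. These values rest on 162 to 261 reads per library. Within a library miR-130a-3p ranked from 170th to 204th among the miRNAs with a read, so it is a miRNA of middling abundance in these aortas.

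The other members were scarce. MiR-130b-5p averaged 1.33 rpm over the 12 libraries, miR-301a-5p 0.380 rpm, miR-301a-3p 0.304 rpm, miR-130a-5p 0.154 rpm, miR-130b-3p 0.137 rpm and miR-301b-3p 0.0341 rpm. MiR-130a-3p exceeded miR-130b-5p in 12 of 12 libraries with no overlap of their ranges, and miR-130b-5p exceeded miR-301a-5p in 12 of 12, although their ranges over all libraries overlapped. Further down each miRNA overlapped with the next, and miR-301a-5p exceeded miR-301a-3p in just 7 of 12. The order compares reads, and different mature ends can be ligated with different efficiency, so a gap between 2 miRNAs need not be a gap in molecules.

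**Figure D1:**
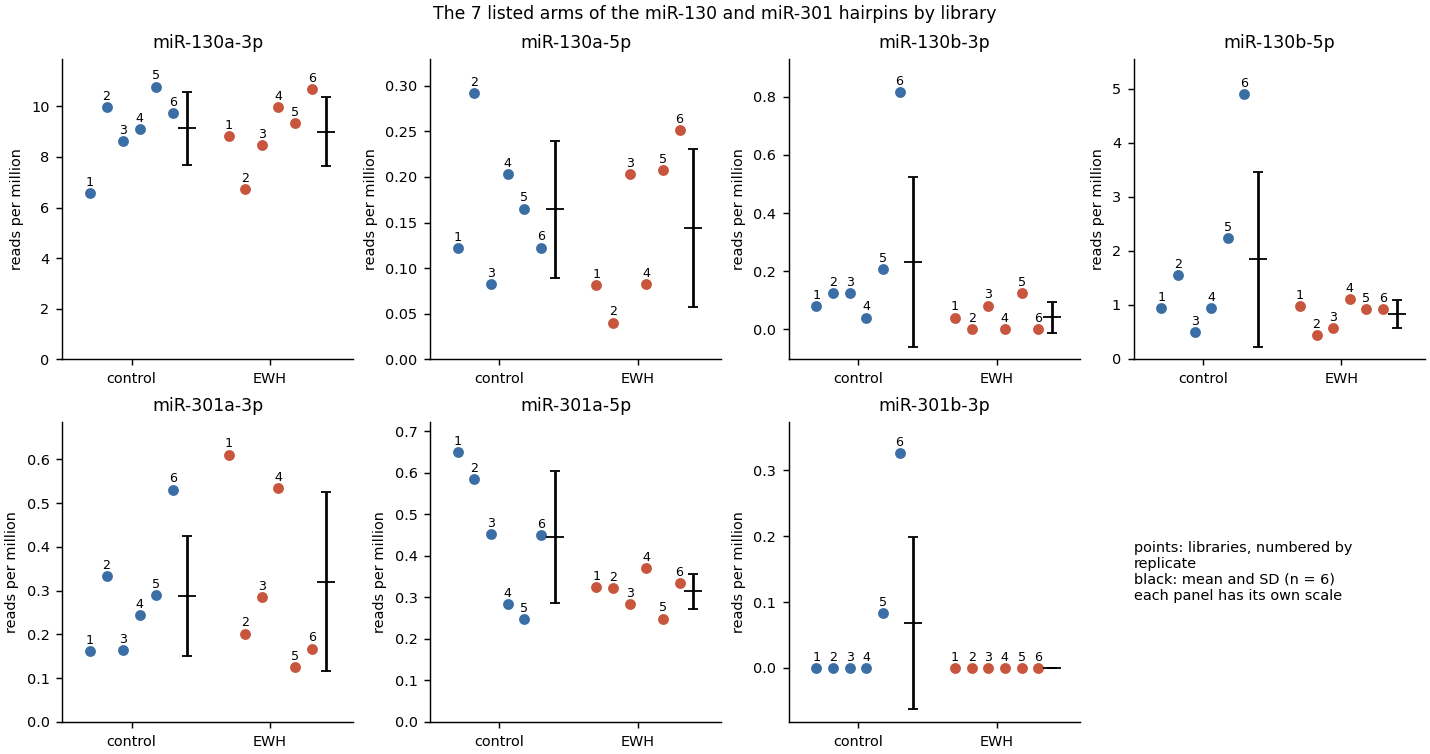
Level of each of the 7 listed members in reads-per-million (vertical axis, a separate linear scale in each panel) in 6 control and 6 EWH libraries, numbered by replicate, with the mean and SD of each group in black. MiR-130a-3p spans the same range in both groups, from 6.58 to 10.8 rpm in control and 6.74 to 10.7 rpm in EWH, while control 6 stands highest in miR-130b-5p, miR-130b-3p and miR-301b-3p.

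Added together, the 3p arms of the 4 hairpins came to 9.72 ± 1.74 rpm among controls and to 9.37 ± 1.39 rpm under EWH (SD, n = 6 each). MiR-130a-3p supplied 94.3% ± 4.49 of this among controls and 96.1% ± 1.92 under EWH (SD, n = 6 each). Its share was lowest in control 6, at 85.3%, where miR-130b-3p, miR-301a-3p and miR-301b-3p together made up the remainder. In the other 11 libraries it lay between 93.1% and 98.5%.

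The comparison of EWH with control asks whether the treatment went with a different level of these miRNAs, and no member passed the test. Only miR-130a-3p passed the filter, which asked for 1 rpm or more in 6 or more of the 12 libraries, so it is the 1 member among the 303 miRNAs tested; miR-130b-5p reached 1 rpm in 4 libraries and the other 5 members in none. The mean of miR-130a-3p was 9.14 ± 1.45 rpm among controls and 9.00 ± 1.36 rpm under EWH (SD, n = 6 each). On the scale of log2(rpm + 1), which understates changes of scarce miRNAs, the fold change of EWH against control was −0.02 (SE 0.15), with a 95% interval of −0.33 to 0.30, or 0.794-fold to 1.23-fold. Limma gave a Benjamini-Hochberg adjusted p = 0.954, and edgeR's quasi-likelihood test on recovered read counts gave a Benjamini-Hochberg adjusted p = 0.962. Among the 303 tested, 15 miRNAs had a smaller moderated t in absolute size. Limma called 0% of the 303 at an adjusted p under 0.05 and 23.1% had an unadjusted p under 0.05, while on recovered reads edgeR called 13.2% and DESeq2 20.8%. The direction of so small a difference is not determined: it was positive in edgeR, in DESeq2 and under median-of-ratios scaling.

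**Figure D2:**
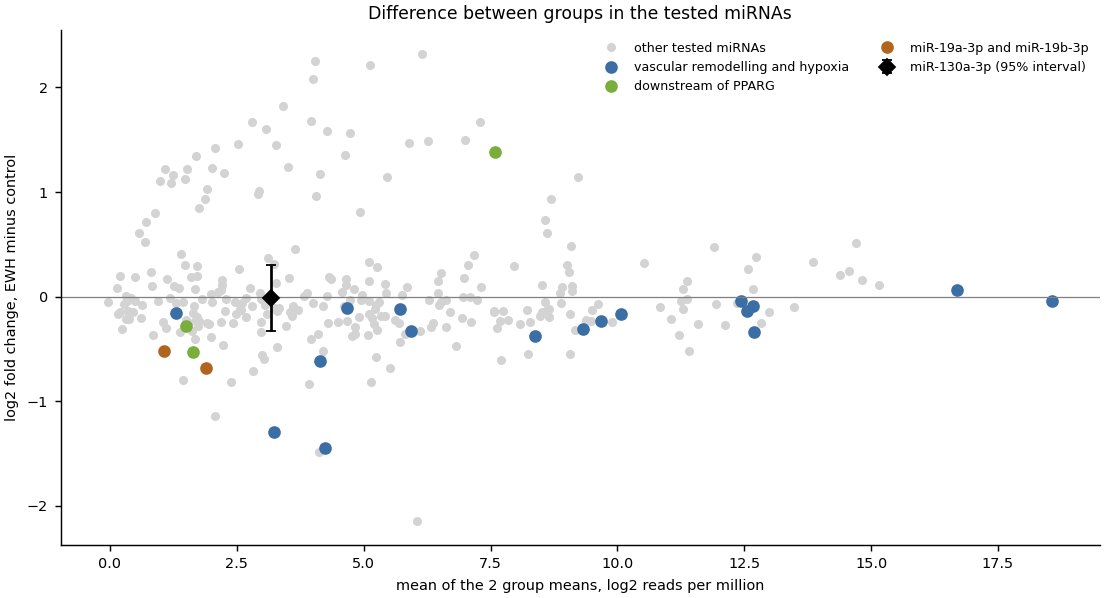
Difference of EWH from control in log2(rpm + 1) (vertical axis) against the log2 of the mean of both group means in reads-per-million (horizontal axis) for 303 tested miRNAs. MiR-130a-3p (black diamond with its 95% interval) lies at −0.02, miR-204-5p (the uppermost green point) at 1.38, and miR-19a-3p and miR-19b-3p (brown) at −0.52 and −0.68.

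The arms from chromosome 11 were the members with the widest gaps between group means, and these gaps came largely from controls 5 and 6. MiR-130b-5p read 0.934, 1.54, 0.494, 0.935, 2.23 and 4.90 rpm in controls 1 to 6, and 0.977, 0.444, 0.570, 1.11, 0.914 and 0.921 rpm in EWH 1 to 6. Controls 2, 5 and 6 were above every EWH library, and controls 1, 3 and 4 lay within the EWH range. The means were 1.84 ± 1.62 rpm and 0.823 ± 0.258 rpm (SD, n = 6 each), a log2 ratio of the means of −1.16. Without control 6 that log2 ratio was −0.58, and without controls 5 and 6 it was −0.25, from a control mean of 0.977 ± 0.432 rpm (SD, n = 4).

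The 3p arm of the same hairpin, miR-130b-3p, showed the same libraries on top. It had 2, 3, 3, 1, 5 and 20 reads in controls 1 to 6 and 1, 0, 2, 0, 3 and 0 reads in EWH 1 to 6. At 0.817 rpm control 6 was 3.96 times the next highest library, control 5 at 0.207 rpm. The group means were 0.232 ± 0.292 rpm and 0.0411 ± 0.0523 rpm (SD, n = 6 each), with a log2 ratio of −2.50 that became −1.49 without control 6 and −1.17 without controls 5 and 6.

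MiR-301b-3p, the partner of miR-130b in the pair of neighbouring hairpins, was read in controls 5 and 6 alone. It had 2 reads (0.0826 rpm) in control 5, 8 reads (0.327 rpm) in control 6 and none in the other 10 libraries. Pooled over each group this is 10 reads against 0. The pooled control level was 3.33 times the floor of 3 reads over the EWH group (0.0205 rpm). This ratio takes the control reads as exact and leaves out the spread among libraries, so it is no lower bound. Without control 6 both groups were under that floor, and the 5p arm of miR-301b is not among the listed miRNAs.

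**Figure D3:**
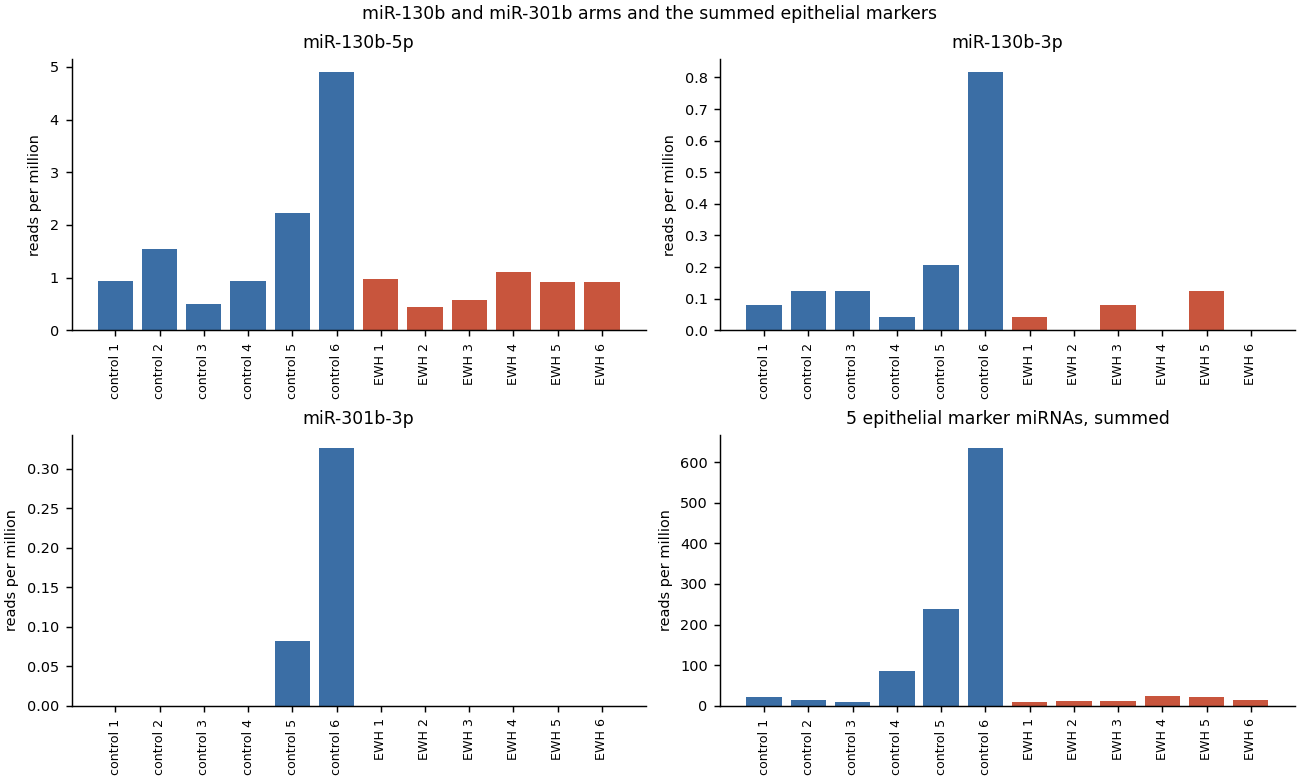
Level in reads-per-million (vertical axes, starting at 0) of miR-130b-5p, miR-130b-3p and miR-301b-3p, and the sum of 5 epithelial marker miRNAs, in each of 12 libraries (blue control, red EWH). Control 6 is highest and control 5 next in all 4 panels, at 636 and 238 rpm in the epithelial sum.

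No filter was applied in a second fit, so that all 7 members entered it among 641 miRNAs. Limma then called none of the 7, nor any of the 641 (0%), and no member had an unadjusted limma p under 0.05, where 18.1% of all miRNAs did. For the chromosome 11 arms limma's Benjamini-Hochberg adjusted p was 0.333 for miR-130b-3p, 0.384 for miR-130b-5p and 0.512 for miR-301b-3p. EdgeR on recovered reads called 9.52% of the 641 and none of the 7. These same 3 members had an unadjusted edgeR p under 0.05, all lower in EWH. By that rule 24.3% of the 641 had such a p in either direction and 9.05% had it with a lower level in EWH. Their Benjamini-Hochberg adjusted edgeR p was 0.113, 0.134 and 0.188 in the order above. DESeq2 with no filter called 95 of 640 miRNAs and none of the 7. Its unadjusted p was under 0.05 for 154 of the 640 and for 2 of the 7, but was 0.310 for miR-301b-3p. Without controls 5 and 6, a choice made after seeing the data, no member had an unadjusted edgeR p under 0.05, where 17.3% of the 637 miRNAs with a read in these 10 libraries did, and edgeR called 0% of them. The adjusted edgeR p (Benjamini-Hochberg) was 0.467 for miR-130b-3p and 0.649 for miR-130b-5p. MiR-301b-3p then had no read in any library.

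Beside these arms stood the epithelial markers: all 5 were listed, none was at 0 in all libraries, and their sum ran from 8.89 to 636 rpm in control and from 9.86 to 25.0 rpm in EWH. MiR-200b-3p made up most of this sum in controls 5 and 6, at 176 and 501 rpm. MiR-200a-3p, miR-200c-3p and miR-141-3p also had a lower mean in EWH. MiR-429 differed little, at 2.45 ± 0.831 rpm among controls and 1.84 ± 0.918 rpm under EWH (SD, n = 6 each). Control 4 had the next highest sum, 86.9 rpm, while its miR-130b-5p level lay within the EWH range. The miRNAs with the offset seed also peaked in controls 5 and 6. MiR-19b-3p read 7.15 and 10.3 rpm in controls 5 and 6 and 1.41 to 3.46 rpm in the other 10, and miR-19a-3p read 3.64 and 6.66 rpm against 1.13 to 2.20 rpm. The part of the epithelial markers in the group means of miR-130b and miR-301b was not tested. Leaving out controls 5 and 6 also takes out the highest values of miR-19a-3p and miR-19b-3p, so the values without them do not test it.

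The arms of miR-301a were read at similar mean levels, and neither passed limma's adjusted threshold between groups. MiR-301a-3p had 4, 8, 4, 6, 7 and 13 reads in controls 1 to 6 and 15, 5, 7, 13, 3 and 4 reads in EWH 1 to 6. EWH 1, EWH 4 and control 6 were the high libraries, so each group held high and low values, with means of 0.288 ± 0.137 and 0.321 ± 0.204 rpm (SD, n = 6 each). Without EWH 1 the log2 ratio of the means changed from 0.16 to −0.13. MiR-301a-5p had 16, 14, 11, 7, 6 and 11 reads in controls 1 to 6 and 8, 8, 7, 9, 6 and 8 reads in EWH 1 to 6. Controls 1, 2, 3 and 6 were above every EWH library, and controls 4 and 5 had no more reads than most EWH libraries; means were 0.445 ± 0.159 and 0.315 ± 0.0422 rpm (SD, n = 6 each), a log2 ratio of −0.50 that ran from −0.36 to −0.62 with single libraries left out. In the unfiltered limma fit the Benjamini-Hochberg adjusted p was 0.880 for the 3p and 0.349 for the 5p arm. The discarded arm of miR-130a, miR-130a-5p, had 1 to 7 reads in every library and means of 0.165 ± 0.0751 and 0.144 ± 0.0866 rpm (SD, n = 6 each; limma without filter, adjusted p = 0.808). No member had groups that did not overlap, which 1.09% of the 641 miRNAs had.

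The 3 hairpins with both arms listed differed in which arm was read. In miR-130a the 5p arm held 1.76% ± 0.686 of the hairpin's reads among controls and 1.52% ± 0.829 under EWH (SD, n = 6 each), the usual order with 3p as guide. In miR-130b, whose hairpin is printed above, the order was the opposite: the 5p arm held 89.6% ± 5.73 among controls and 95.2% ± 6.01 under EWH (SD, n = 6 each). In 12 of 12 libraries the 95% Wilson interval of the 5p share lay above 50% for miR-130b and below 50% for miR-130a. The miR-130b counts were 389 reads for 5p and 40 for 3p over all libraries, against 45 and 2648 for miR-130a. MiR-301a lay between them, with 60.5% ± 14.3 among controls and 53.4% ± 13.7 under EWH (SD, n = 6 each), and in 11 of 12 libraries the interval included 50%. These shares compare reads, and arms can be ligated with different efficiency, so they need not be shares of molecules or of loaded miRNA. MiR-130a-3p and miR-130b-3p match at 20 of 22 positions, and how reads that fit both were assigned is not given. The 40 reads of miR-130b-3p, and so its hairpin's 5p share, carry that uncertainty too.

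**Figure D4:**
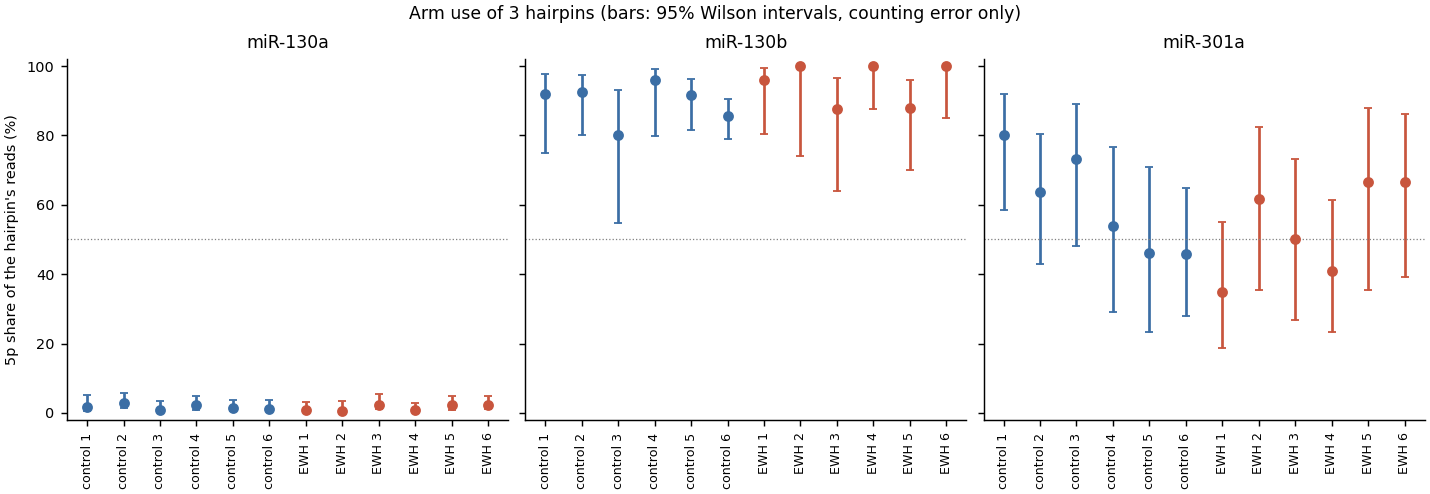
Share of a hairpin's reads that came from its 5p arm, in percent (vertical axis), in each of 12 libraries (blue control, red EWH) for miR-130a, miR-130b and miR-301a, with 95% Wilson intervals for counting error. MiR-130a stays at or below 2.85%, miR-130b at or above 80.0%, and miR-301a ranges from 34.8% to 80.0%.

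Arm use did not pass a test between groups. No member hairpin had both arms past the filter, so none was among the 67 arm ratios tested, of which limma called 0%. With no filter, 222 hairpins entered, limma called 0% of them, and 18.0% had an unadjusted p under 0.05. The log2 change of the ratio (5p + 1)/(3p + 1) was −0.01 (SE 0.11) for miR-130a, −0.28 (SE 0.20) for miR-130b and −0.16 (SE 0.12) for miR-301a, with Benjamini-Hochberg adjusted limma p of 0.958, 0.504 and 0.545, and no unadjusted p under 0.05. With a pseudocount of 1 rpm these ratios understate changes in arms this scarce.

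Opposite the miR-130a hairpin RefSeq has a second one, Mir3590, on the plus strand, and its 74 bases all fall within the span of miR-130a. Both are printed with their mature arms in capitals, because the mature strands pair with each other.
Mir130a: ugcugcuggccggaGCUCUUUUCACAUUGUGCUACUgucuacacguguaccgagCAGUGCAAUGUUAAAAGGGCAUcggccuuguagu
Mir3590: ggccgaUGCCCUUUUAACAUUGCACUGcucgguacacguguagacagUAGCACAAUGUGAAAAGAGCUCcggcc
All 21 bases of miR-3590-5p are complementary to bases 1 to 21 of miR-130a-3p. MiR-3590-5p, which is no member and was chosen after its values were seen, read 3.49, 6.14, 4.24, 4.07, 3.97 and 4.66 rpm in controls 1 to 6, and 4.52, 2.99, 5.21, 3.91, 5.86 and 5.82 rpm in EWH 1 to 6. It was below miR-130a-3p in 12 of 12 libraries, at 0.488 ± 0.0828 times its level among controls and 0.522 ± 0.0931 times under EWH (SD, n = 6 each). Its log2 fold change was 0.07 (SE 0.17; limma, Benjamini-Hochberg adjusted p = 0.834). Whether the authors' counting used the strand is not given in the sources used here, so reads of one strand could have been counted for the other, and the level of miR-130a-3p carries that uncertainty. The other antisense arm, miR-3590-3p, had 4 reads in all.

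**Figure D5:**
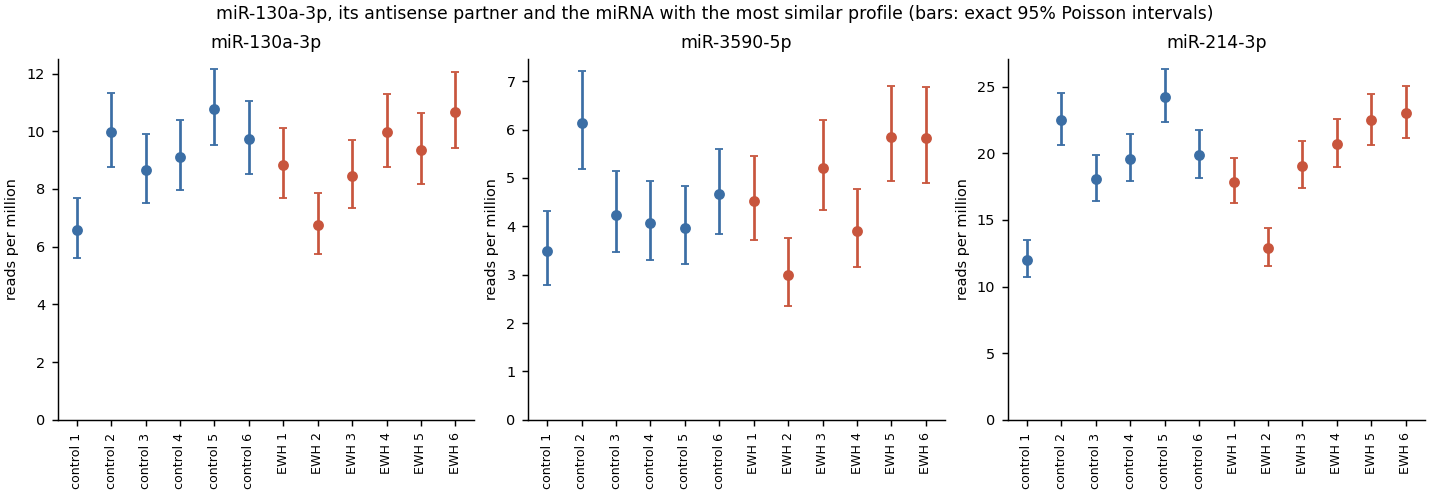
Level in reads-per-million (vertical axes from 0) of miR-130a-3p, its antisense partner miR-3590-5p and miR-214-3p in 12 libraries (blue control, red EWH), with exact 95% Poisson intervals for counting error. Control 1 and EWH 2 are the lowest libraries in miR-130a-3p and miR-214-3p, while miR-3590-5p is lowest in EWH 2 and highest in control 2.

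Across the 12 libraries the profiles most like that of miR-130a-3p, by Pearson correlation of log2(rpm + 1) after the group means were taken out, were those of miR-214-3p, miR-199a-3p and miR-125b-5p. They were picked as the highest of 302 and so are given with no p, and all points share the libraries' depth and composition. For miR-214-3p, a mesenchymal miRNA made from one transcript with miR-199a, Pearson's r was 0.97 and Spearman's rho 0.93. Its group means were 19.4 rpm (control) and 19.3 rpm (EWH), and r was 0.86 without control 1 and EWH 2, which lay farthest from the median of miR-130a-3p. For miR-199a-3p r was 0.92 and rho 0.78, with r = 0.62 without these libraries. For miR-125b-5p r was 0.90 and rho 0.83, with r = 0.68 without them.

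Among miRNAs tied to the family's pathway, those placed downstream of PPARG in work on pulmonary hypertension are miR-204-5p, miR-322-5p (the rodent name of miR-424) and miR-503-5p. None of the 3 passed limma, which called 0% of all tested, and edgeR and DESeq2 each called 1 of the 3, miR-204-5p, where they called 13.2% and 20.8% of all. In limma's fit 1 was higher and 2 were lower in EWH; their median change was −0.28 on the log2 scale, against −0.06 over all tested miRNAs, of which 60.1% were lower. MiR-204-5p, which limits smooth muscle proliferation, ran from 55.7 to 154 rpm among controls and from 111 to 611 rpm under EWH, with EWH 3 and 4 the highest at 425 and 611 rpm. Its log2 fold change was 1.38 (SE 0.40; adjusted p = 0.128 by limma and 0.031 by edgeR, both Benjamini-Hochberg). EWH 3 and 4 are also the libraries with the highest sums of neuronal and glial markers. In that sum EWH 1, 5 and 6 were above every control too, and EWH 2 was not. The part of these markers in miR-204-5p was not tested. MiR-322-5p was at −0.28 (SE 0.25) and miR-503-5p at −0.53 (SE 0.34), with limma adjusted p of 0.549 and 0.398 (Benjamini-Hochberg); control 1 was the highest library in both, at 6.91 and 12.3 rpm. Without control 1, an alternative chosen after seeing the data, the control mean of miR-503-5p was 2.52 in place of 4.15 rpm, against 2.04 rpm under EWH, and that of miR-322-5p was 2.53 in place of 3.26 rpm, against 2.39 rpm. Control 1 is the library with the highest endothelial and adipocyte sums, whose part in this was not tested.

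A wider list of 17 miRNAs known from vascular remodelling and hypoxia, outside the family, had 0 members past limma's adjusted threshold, 1 higher and 16 lower in EWH; the median change was −0.17 on the log2 scale. Over all 303 tested, 39.9% were higher and 60.1% lower, with a median of −0.06. This list, like the one downstream of PPARG, was chosen with earlier results of these data known, so its counts only describe it. EdgeR called 2 of the 17 where it called 13.2% of all tested, and DESeq2 called 3 where it called 20.8% of all. The edgeR calls were miR-17-5p at −1.29 (SE 0.41) and miR-20a-5p at −1.45 (SE 0.40) on limma's log2 scale, each at a Benjamini-Hochberg adjusted edgeR p of 0.031, and DESeq2 added miR-29a-3p at a Benjamini-Hochberg adjusted p of 0.025. MiR-17-5p and miR-20a-5p belong to the miR-17-92 cluster, like miR-19a-3p and miR-19b-3p, which were lower in EWH at −0.52 (SE 0.27) and −0.68 (SE 0.29), with Benjamini-Hochberg adjusted limma p of 0.275 and 0.183. MiR-20a-5p read 37.0 and 78.9 rpm in controls 5 and 6, at most 17.4 rpm in the other controls and 4.68 to 10.8 rpm under EWH, and each control was above each EWH library. Its control mean was 15.2 rpm without controls 5 and 6, against 8.10 rpm under EWH. MiR-17-5p also spread widely among controls, with means of 14.7 ± 13.9 rpm and 4.05 ± 0.872 rpm under EWH (SD, n = 6 each). With no filter and without controls 5 and 6, a choice made after seeing the data, edgeR called 0% of 637 miRNAs. None of these miRNAs, nor miR-204-5p, was thus called in that run. It had fewer libraries and adjusted over more miRNAs than the run that called them, so these changes and the part of controls 5 and 6 cannot be told apart. The hypoxia-induced miR-210-3p stood at 2.59 ± 0.345 rpm among controls and 2.31 ± 0.834 rpm under EWH (SD, n = 6 each), a log2 fold change of −0.15 (SE 0.17; limma, adjusted p = 0.639).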

How the data were processed

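The deposited data are 1 table with 641 rows of mature rat miRNAs and a column for each of 12 libraries, in reads-per-million (RPM): each value is a whole number of reads over a total of its library. The file's name gives another unit, but no length term was found, and division by the smallest step gave whole reads for 100% of values within 0.01 read. The genome build was rn6, per the submitters' processing notes. Per the labels' protocols, RNA was Trizol-extracted and inserts of 15 to 35 nt were taken. Not given in the sources used here are aligner, counter, annotation and strand setting.

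Groups followed the sample titles. The 303 miRNAs that reached 1 rpm in 6 or more libraries were compared as log2(rpm + 1) with limma 3.58.1 (trend, two-sided, R 4.3.3), Benjamini-Hochberg adjustment over all tested and a threshold of 0.05. Such fold changes understate changes of low miRNAs. Arm ratios were compared likewise. On recovered reads, edgeR 4.0.16 and DESeq2 1.42.0 were alternatives; others were filters, pseudocounts, scalings, variance models, the replicate block and libraries left out. Named miRNAs were all listed arms of the 4 hairpins and the 3 most similar profiles; other names are from lists or stated as chosen after seeing values. Members and lists were chosen with earlier results of these data known. The fits were tested on simulated counts. Figures used Python 3.11.15 and matplotlib 3.10.9.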

Additional observations from a re-analysis of the deposited data

Results flagged for a closer look

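Control 6 stood apart in both 3p arms from chromosome 11. Its miR-130b-3p level of 0.817 rpm (20 reads) was separated from the next control by 0.786 of the range of the 6 controls, and its miR-301b-3p level of 0.327 rpm (8 reads) by 0.747, both above Dixon's critical value of 0.625 for 6 samples. They are 2 of 21 groups of values screened. Chance alone marks about 1 in 20 groups of normally distributed values. These values are low counts with ties and the groups share reads, so that rate need not hold here.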

How the results depend on the processing

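No member was called in any alternative run. Runs with a filter tested no member other than miR-130a-3p, so the others could be called only in runs with no filter. The log2 fold change of miR-130a-3p, −0.02, was 0.0151 in edgeR, 0.0113 in DESeq2, 0.0143 under median-of-ratios scaling, 0.00657 in DESeq2 with no filter, 0.0291 in edgeR with no filter and without controls 5 and 6, and 0.0642 in limma without controls 5 and 6. With single libraries left out it ran from −0.0984 to 0.0543. It was −0.09 after quantile normalization, which moved the median of all tested miRNAs to −0.12, and had no value at a filter of 10 rpm. The count over all miRNAs, 0, was 40 in edgeR, 63 in DESeq2, 61 and 95 in these with no filter, 0 in edgeR with no filter and without controls 5 and 6, 8 after quantile normalization, 1 without EWH 3 and 4 together and 1 without controls 5 and 6 together, and from 0 to 24 with single libraries left out (24 without EWH 2, 1 without EWH 4). The count of arm ratios, 0, was 3 at a pseudocount of 5 and from 0 to 1 with single libraries left out (1 without control 4, control 5 or EWH 4). No member hairpin had both arms past the filter in these runs, so no arm ratio of the family could be called. The cause of the changes in these counts was not tested. With the replicate number as a block no miRNA and no arm ratio was called, and miR-130a-3p had adjusted p = 0.967 (limma, Benjamini-Hochberg). The deviations of same-numbered libraries correlated at 0.126, 0.160 and 0.313 in pairs 1, 3 and 6, and at −0.504, −0.224 and −0.280 in pairs 2, 4 and 5. No control correlated best with the EWH library of its number, so the numbers were not taken as pairs. The count tests with no filter and the fits without 2 libraries were chosen after seeing the data. Depth limits the members beside miR-130a-3p and miR-130b-5p: they had at most 20 reads in a library, where counting error alone gives a coefficient of variation of 32.9% to 110% between libraries.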

Other observations

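The spread of the members between libraries can be set beside the spread that counting alone would give at their mean read numbers. Over all 12 libraries the coefficient of variation was 50.5% for miR-130a-5p, where counting gives 51.6%, and 34.2% for miR-301a-5p, where counting gives 32.9%. It was 54.8% against 36.7% for miR-301a-3p, 14.8% against 6.73% for miR-130a-3p, 92.0% against 17.6% for miR-130b-5p, 163% against 54.8% for miR-130b-3p and 279% against 110% for miR-301b-3p. Counting is only one part of the spread between separate libraries. Without control 6, left out after its values were seen, the coefficients were 50.6% against 20.2% for miR-130b-5p and 88.5% against 74.2% for miR-130b-3p.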
